A study of Mus musculus with 8 samples.

Results

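The genes described here encode the nuclear-coded subunits of the mitochondrial respiratory chain and of ATP synthase in primitive erythroid precursors, the first red cell lineage of the mouse embryo. Members were chosen by name: every probe set on the array with a single gene symbol that begins with Nduf, Cox4 to Cox8, Uqcr or Atp5, or that reads Sdha, Sdhb, Sdhc or Sdhd. The rule found 84 genes of the 12393 genes with a single-symbol probe set, and these 84 genes had 156 of the 22626 probe sets. The brightest probe set, by its mean over all 8 arrays, stood for each gene. By complex, 33 genes belonged to complex I, 4 to complex II, 8 to complex III, 17 to complex IV and 17 to ATP synthase, and 5 were assembly factors of complex I that share the Nduf prefix.

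RNA was measured on 8 Affymetrix arrays, 4 labelled as KLF2 knockout (KLF2-/-, replicates 11, 12, 13 and 14) and 4 as wild type on the FVB/N strain (replicates 3, 5, 7 and 9), at embryonic day 9.5. KLF2 is a zinc finger transcription factor, and the comparison asks which transcripts differ in erythroid precursors that lack it. The cells were cut by laser from yolk sac sections of 8 µm, from 30 to 80 slides for a knockout replicate and 12 to 50 for a wild-type one, and each replicate pooled 2 to 4 yolk sacs of 2 litters. The RNA yield was 10 to 20 ng in the knockout and 10 to 39 ng in the wild type, and it was amplified by a 2-cycle labelling before hybridisation. The labels give the mothers of the knockout embryos as KLF2-/- in one place and as KLF2+/- in another. They give no strain for the KLF2 line, so strain and genotype cannot be told apart. Values for single arrays are given below in the replicate order 11, 12, 13 and 14 for the labelled knockout and 3, 5, 7 and 9 for the wild type, as deposited log2 values, and a difference is always the labelled knockout mean minus the wild-type mean on the log2 scale.

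In mitochondria, complex I (NADH dehydrogenase) and complex II (succinate dehydrogenase) pass electrons to coenzyme Q, complex III (cytochrome bc1) passes them on to cytochrome c, and complex IV (cytochrome c oxidase) hands them to oxygen. Complexes I, III and IV pump protons, and ATP synthase uses the gradient to make ATP. The first and last steps of haem synthesis in red cell precursors also lie in mitochondria, and definitive mouse red cells lose their mitochondria as they mature.

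Klf2 itself was not lower on the arrays labelled knockout. Its probe set read 5.38, 5.77, 7.15 and 5.89 there against 5.18, 5.28, 4.97 and 5.70 in the wild type, a difference of 0.77 (SE 0.35, limma adjusted p = 0.905). The sources used here do not say whether this probe set lies inside the deleted part of the gene, so it does not check the labels, and the groups are called by their labels throughout. The globin markers of the lineage were bright on every array: Hbb-bh1, an embryonic beta-like globin, ranged from 14.01 to 14.13 on the arrays labelled knockout and from 14.04 to 14.17 in the wild type. The correlation between arrays was 0.951 to 0.987 within groups and 0.953 to 0.988 between groups, and for 4 of the 8 arrays the closest array lay in the other group.

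No respiratory chain or ATP synthase gene passed the test between the groups. In limma fitted across all 12393 genes, 0 of 84 had a Benjamini-Hochberg adjusted p under 0.05 and the lowest adjusted p was 0.905; over all genes the share passing was 0 percent. The genes split about evenly, 43 with a higher and 41 with a lower mean on the arrays labelled knockout, with a median difference of 0.00 against 0.02 over all genes. The differences ran from -0.70 for Ndufa6 to 1.13 for Atp5b. The 95% interval of the difference lay within 1 log2 unit (2-fold) of 0 for 76 of the 84 genes and reached beyond it for the other 8: Ndufa6, Ndufa8, Ndufa10, Ndufaf1, Uqcrc1, Cox7c, Atp5b and Atp5g2. These intervals are not adjusted for the number of genes.

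Before adjustment, 2 genes had p under 0.05 with a higher mean on the arrays labelled knockout (Atp5b and Ndufa10), where the share over all genes was 3.33%. With a lower mean there were 4 (Ndufa6, Cox7a1, Ndufa4 and Atp5j2), against 1.47% of all genes. The groups did not overlap for 2 genes that were higher on the arrays labelled knockout, Atp5b and Atp5g3, against 1.55% of all genes. They did not overlap for 5 that were lower, Ndufa6, Ndufa4, Cox7a1, Atp5j2 and Atp5md, against 1.07% of all genes. Both lower counts stand above the shares over all genes and rest on a handful of genes, none of which passed the adjusted test.

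**Figure D1:**
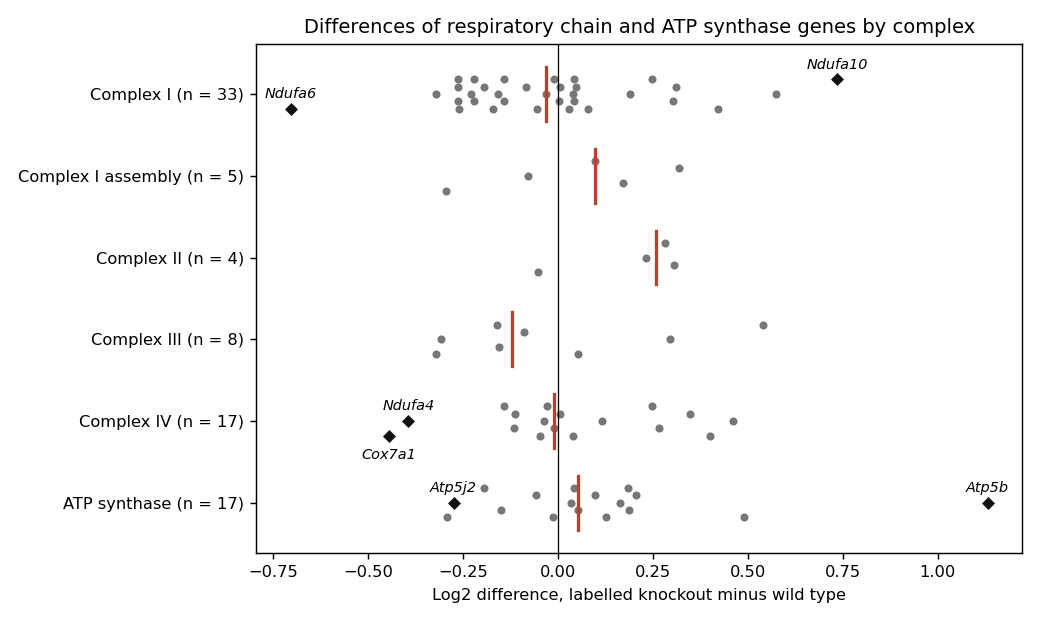
Log2 difference (labelled knockout minus wild type, 4 arrays each) of each of the 84 genes, in a row per complex. Circles and diamonds are genes, diamonds those with an unadjusted limma p under 0.05, and the upright bars are medians. The points of each complex lie on both sides of 0, and Atp5b at 1.13 and Ndufa6 at -0.70 are the outermost.

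The 4 genes of smallest p with a promoter in the RefSeq table (build GRCm38.p6) are shown with the 250 bases before their start site, 5′ to 3′ on the strand of the gene, because their differences went both ways. Capitals mark matches, on either strand, to motifs of factors known for nuclear genes of mitochondrial proteins or for KLF proteins. The NRF1 core was searched as GCATGCGC and the YY1 site as AAGATGGC. For the ETS site the letters were CCGGAAG. Those of the GC box were GGGCGG. The CACCC-type site, the kind that KLF proteins bind, was searched as CCNCNCCC and the CCAAT box by the letters of its name. A GC box and a CACCC-type site can share letters. Ndufa6 lies on the minus strand at chr15:82354292-82354541, Cox7a1 on the plus strand at chr7:30183921-30184170, Atp5b on the plus strand at chr10:128083057-128083306 and Ndufa10 on the minus strand at chr1:92473759-92474008.
Ndufa6: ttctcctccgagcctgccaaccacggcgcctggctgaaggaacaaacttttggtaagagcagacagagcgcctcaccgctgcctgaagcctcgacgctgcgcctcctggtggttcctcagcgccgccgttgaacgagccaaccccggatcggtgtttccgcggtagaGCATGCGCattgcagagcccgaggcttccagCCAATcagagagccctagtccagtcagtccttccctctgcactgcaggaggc
Cox7a1: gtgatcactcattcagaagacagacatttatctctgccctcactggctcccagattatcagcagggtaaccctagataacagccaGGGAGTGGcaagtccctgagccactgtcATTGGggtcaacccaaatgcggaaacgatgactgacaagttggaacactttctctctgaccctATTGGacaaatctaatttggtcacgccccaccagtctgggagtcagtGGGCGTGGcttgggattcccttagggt
Atp5b: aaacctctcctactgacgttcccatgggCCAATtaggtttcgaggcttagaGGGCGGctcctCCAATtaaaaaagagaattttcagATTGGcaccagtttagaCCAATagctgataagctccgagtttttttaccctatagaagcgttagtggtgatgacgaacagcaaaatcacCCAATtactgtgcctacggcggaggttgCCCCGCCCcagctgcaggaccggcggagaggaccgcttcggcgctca
Ndufa10: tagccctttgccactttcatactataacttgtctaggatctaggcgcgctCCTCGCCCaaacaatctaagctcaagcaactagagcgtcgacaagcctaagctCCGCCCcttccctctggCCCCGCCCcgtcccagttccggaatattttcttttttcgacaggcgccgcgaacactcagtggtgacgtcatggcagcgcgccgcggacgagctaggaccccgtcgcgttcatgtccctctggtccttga

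Counted from the start site, the Ndufa6 stretch holds the NRF1 core at -83 to -76 and a CCAAT box at -52 to -48. The longer Ndufa6 window counted below, which runs 50 bases past the start site, also holds a GC box and a CACCC-type site. The Cox7a1 stretch holds CACCC-type sites at -165 to -158 and -27 to -20 and 2 CCAAT boxes. The Atp5b stretch holds 5 CCAAT boxes, a GC box at -199 to -194, and a second at -45 to -40 that lies inside a CACCC-type site at -47 to -40. The Ndufa10 stretch holds GC boxes at -147 to -142 and -128 to -123 and CACCC-type sites at -200 to -193 and -130 to -123, the latter over the second GC box. None of the 4 stretches holds the ETS or the YY1 letters.

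Windows of 300 bases (250 before the start site and 50 after it) were at hand for 70 of the 84 genes, 75 windows in all, and 14 genes had none. The NRF1 core was in 11 of them (14.7%) against 2.7% of all 32851 windows and 4.3% of the 12559 windows of genes on the array. The ETS letters were in 18 (24.0%) against 8.9% and 14.01%, and the YY1 letters in 9 (12.0%) against 2.7% and 3.6%. The GC box was in 32 (42.7%) against 35.7% and 55.4%, the CACCC-type site in 46 (61.3%) against 49.5% and 65.1%, and the CCAAT box in 29 (38.7%) against 37.4% and 37.1%. The members' shares of the NRF1, ETS and YY1 letters were above both backgrounds, whereas those of the GC box and the CACCC-type site lay between them. By complex, the YY1 letters were in 6 of 32 complex I windows and 3 of 18 ATP synthase windows and in none of the others. The NRF1 core was in 2 of the complex I windows and 3 of the ATP synthase windows. It was also in 1 of 3 complex II, 2 of 5 complex III, 1 of 12 complex IV and 2 of 5 assembly factor windows. A match is a description of the letters, not of binding.

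Complex I, the entry point for electrons from NADH, had 15 genes with a higher and 18 with a lower mean on the arrays labelled knockout, with a median difference of -0.03. Its 6 measured core subunits, which carry the flavin and iron-sulphur clusters or belong to the catalytic arm, split 2 to 4, with differences from -0.32 to 0.25. Ndufs1, the large iron-sulphur subunit, read 8.86, 8.47, 7.86 and 8.26 against 8.54, 8.93, 8.54 and 8.72 (difference -0.32, SE 0.21). Its groups overlapped, since replicate 11 of the labelled knockout was above 3 of the 4 wild-type arrays. Ndufs7, a cluster-bearing subunit near the coenzyme Q site, read 10.90, 10.83, 10.29 and 10.77 against 10.26, 9.89, 10.65 and 10.99 (difference 0.25, SE 0.25). Here wild-type replicates 3 and 5 were the lowest of the 8 arrays and wild-type replicate 9 the highest. The differences of Ndufs3, Ndufs8, Ndufv1 and Ndufv2 were -0.08, -0.06, 0.05 and -0.26. These 6, like other genes named only to complete a group, fall outside the rule for named genes and were added with their values known.

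The Ndufa genes, accessory subunits around the core, held the largest differences of complex I in both directions. Ndufa6, an LYR-motif subunit that binds the acyl carrier protein, read 9.23, 8.98, 8.43 and 8.52 on the arrays labelled knockout against 9.36, 9.43, 9.60 and 9.57 in the wild type. The groups did not overlap, and replicates 13 and 14 were the lowest. The means were 8.79 ± 0.38 and 9.49 ± 0.11 (SD, n = 4), a difference of -0.70 with SE 0.20, or 1.63-fold lower, with a limma adjusted p of 0.905. It kept this direction without wild-type replicates 3 and 5, at -0.80.

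Ndufa10, an accessory subunit of the membrane arm with a nucleoside kinase fold, went the other way. Its 4 arrays labelled knockout lay close together at 9.04, 9.002, 8.86 and 9.03, while the wild-type arrays spread over 8.02, 7.51, 8.44 and 9.02. Wild-type replicates 3, 5 and 7 lay below every array labelled knockout, and replicate 9 lay among them. The means were 8.98 ± 0.08 and 8.25 ± 0.64 (SD, n = 4), a difference of 0.73 with SE 0.28, and without wild-type replicates 3 and 5 the difference was 0.25. Ndufa8, a subunit of the intermembrane space face, had the same pattern, with 9.56, 9.56, 8.98 and 9.41 against 8.41, 7.97, 9.32 and 9.52 (difference 0.57, SE 0.34). Without these wild-type replicates its difference was -0.04.

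Over all 11 Ndufa genes of complex I, 4 were higher and 7 lower, with a median of -0.14. The 12 Ndufb and Ndufc genes, which code for subunits of the membrane arm, split 7 to 5 with a median of 0.00 and a narrower range, -0.26 to 0.30. At the upper end Ndufb1 read 4.51, 4.70, 4.97 and 4.77 against 4.57, 4.34, 4.34 and 4.49 (difference 0.30, SE 0.14). Its probe set was dim, with a mean over all arrays of 4.59, under the median of the gene means, 5.61. At the lower end Ndufb9, another LYR-motif subunit, read 11.33, 11.25, 10.95 and 11.38 against 11.57, 11.45, 11.60 and 11.35 (difference -0.26, SE 0.14). In both genes the groups overlapped through replicates at their edges. Ndufb3 and Ndufb11 had differences of 0.00. For Ndufb3 the 95% interval was -0.38 to 0.39. The other 4 accessory genes, Ndufs4, Ndufs5, Ndufv3 and Ndufab1 (the mitochondrial acyl carrier protein), differed by -0.14, -0.22, 0.19 and 0.31.

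The 5 assembly factors, which build complex I without staying in it, varied more from array to array than the genes of any complex, with a median SD within groups of 0.40 against 0.37 in complex II, the next widest, and 0.25 in complex I. Ndufaf1, a factor of membrane arm assembly, read 6.21, 5.34, 4.97 and 6.68 against 5.27, 5.42, 5.73 and 5.49. The arrays labelled knockout thus lay both above and below all of the wild type, and the difference of 0.32 had an SE of 0.34. Ndufaf7, an arginine methyltransferase acting on a core subunit, read 7.68, 6.74, 6.30 and 7.17 against 6.73, 6.98, 6.999 and 6.78 (difference 0.10, SE 0.27). In Ndufaf1, Ndufaf5 and Ndufaf7 replicate 13 was the lowest of all arrays. Ndufaf5, a hydroxylase of a core subunit, read 6.88, 6.51, 5.86 and 6.26 against 6.66, 6.83, 6.52 and 6.69 (difference -0.30, SE 0.21). Ndufaf3 and Ndufaf4 differed by 0.17 (SE 0.25) and -0.08.

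Complex II, which is also an enzyme of the citric acid cycle, had 3 of its 4 genes higher on the arrays labelled knockout, by less than their spread. This split depends on the probe set taken. The second probe sets of Sdha, Sdhc and Sdhd had the opposite sign to the brightest, at -0.58, 0.39 and -0.13, and Sdhb had no second one. Sdha, the flavin subunit that oxidises succinate, read 9.90, 9.90, 9.32 and 9.26 against 9.12, 9.39, 9.22 and 9.72 (difference 0.23, SE 0.21). Sdhb, the iron-sulphur subunit, read 8.96, 9.55, 9.05 and 8.55 against 8.45, 8.37, 8.83 and 9.34 (difference 0.28, SE 0.27). In both genes the groups overlapped, and wild-type replicate 9 was the highest of its group. Of the membrane anchors, Sdhd read 9.70, 9.31, 8.89 and 9.02 against 8.08, 9.01, 9.23 and 9.38 (difference 0.31, SE 0.30). Sdhc read 7.34, 7.25, 7.91 and 7.52 against 7.73, 7.27, 7.61 and 7.63 (difference -0.05, SE 0.18). The value of Sdhd in wild-type replicate 3 lay far below all other arrays. Without wild-type replicates 3 and 5 the median over the 4 genes was -0.07, where it was 0.26 with all arrays.

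In complex III the 3 genes found by the symbol rule that belong to its catalytic or structural core had higher means on the arrays labelled knockout. The 5 small subunits had lower ones, and none passed the test. Uqcrc1, a core protein, read 8.94, 8.99, 8.48 and 8.46 against 7.60, 7.25, 9.07 and 8.79 (difference 0.54, SE 0.39). The wild type was split, replicates 3 and 5 being more than 1 log2 unit below replicates 7 and 9, and without them the difference was -0.21. Uqcrfs1, the Rieske iron-sulphur protein, read 9.60, 9.89, 9.65 and 9.61 against 9.07, 9.41, 9.36 and 9.72 (difference 0.30, SE 0.16). Uqcrc2, the other core protein, differed by 0.05. The small subunits ranged from -0.32 to -0.09. Uqcrh, the hinge protein by which cytochrome c1 meets cytochrome c, read 7.74, 7.92, 7.75 and 7.73 against 7.90, 8.41, 8.01 and 8.05 (difference -0.31, SE 0.15). A single array, replicate 12 at 7.92, reached into the wild-type range. Uqcr11 read 10.15, 10.40, 9.66 and 9.83 against 10.16, 10.07, 10.62 and 10.47 (difference -0.32, SE 0.20), and Uqcrb, Uqcrq and Uqcr10 differed by -0.09, -0.15 and -0.16.

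Complex IV, the oxidase, had a median difference of -0.01 over 17 genes, 8 higher and 9 lower. Ndufa4, long counted with complex I and now placed in complex IV, read 9.10, 9.22, 8.70 and 8.86 against 9.27, 9.58, 9.39 and 9.22. Its groups were separated by 0.001, replicate 12 of the labelled knockout at 9.224 and wild-type replicate 9 at 9.225. The means were 8.97 ± 0.23 and 9.36 ± 0.16 (SD, n = 4), a difference of -0.39 with SE 0.16, or 1.31-fold lower. Without wild-type replicates 3 and 5 it was -0.34.

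Cox4i1, the regulatory subunit found in most tissues, read 12.11, 12.18, 12.00 and 12.06 against 11.49, 11.06, 12.00 and 12.21 (difference 0.40, SE 0.24). Once more wild-type replicates 3 and 5 were the lowest arrays, and without them the difference was -0.01. Cox6a1 read 12.21, 12.54, 12.96 and 12.81 against 12.02, 12.07, 12.43 and 12.62 (difference 0.35, SE 0.21). Cox6b1, which faces the intermembrane space, read 12.17, 12.55, 12.59 and 12.54 against 11.99, 11.82, 12.40 and 12.57 (difference 0.27, SE 0.19). Both had overlapping groups, with wild-type replicates 3 and 5 lowest again. Cox7c read 5.53, 4.998, 5.67 and 5.86 against 5.65, 5.52, 4.93 and 4.10 (difference 0.46, SE 0.34), and here the low wild-type arrays were replicates 7 and 9. Without wild-type replicates 3 and 5 the difference was 0.996. The Cox7c probe set was dim, its mean over all arrays of 5.28 lying under the median of the gene means, 5.61. Cox5b, which carries zinc, differed by 0.01 with a 95% interval from -0.37 to 0.38, and Cox7a2l, a factor of supercomplex assembly, by 0.04.

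Several subunits of complex IV come in a form found in most tissues and a form of particular tissues, often heart and muscle. Of the 6 tissue forms 5 had lower means on the arrays labelled knockout, and for 3 of these the difference was within 0.04 of 0. Cox7a1, the heart and muscle form of Cox7a, read 3.91, 3.95, 4.08 and 3.74 against 4.48, 4.33, 4.40 and 4.25, with no overlap. The means were 3.92 ± 0.14 and 4.36 ± 0.10 (SD, n = 4), a difference of -0.44 with SE 0.13, or 1.36-fold lower (limma adjusted p = 0.905). It is 1 of the 8 members whose mean over all arrays lay under the median of the gene means, 5.61, and so among the dim probe sets. Its ubiquitous counterpart Cox7a2 read 12.07, 12.51, 12.30 and 12.25 against 12.33, 12.38, 12.46 and 12.40, and differed by -0.11. The other pairs showed no separation on either side. The probe sets of Cox4i2, Cox6a2 and Cox8b were also dim, with means over all arrays of 4.93, 5.50 and 5.11, under the same median. Cox4i2, the form described in lung, lay between 4.73 and 5.15 in both groups (difference -0.03). Cox6a2, the muscle form of Cox6a, read 5.28, 4.92, 5.58 and 6.13 against 5.51, 5.46, 5.70 and 5.39 (difference -0.04). Cox6b2, the testis form of Cox6b, read 6.03, 5.71, 4.99 and 6.24 against 5.54, 5.21, 6.31 and 6.47 (difference -0.14, SE 0.35), the widest spread of the tissue forms. Cox8a and its muscle form Cox8b differed by -0.11 (SE 0.13) and -0.01 (SE 0.27), and Cox8c by 0.25. Of the isoform partners of Ndufa4, Ndufa4l2 had no single-symbol probe set here.

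ATP synthase held the largest single difference. Atp5b, the catalytic beta subunit of the F1 head, read 10.59, 10.56, 10.04 and 10.06 on the arrays labelled knockout against 8.24, 8.79, 9.98 and 9.71 in the wild type. The groups did not overlap, but replicates 13 and 14 of the labelled knockout lay just above wild-type replicate 7, whereas wild-type replicates 3 and 5 were far below. The means were 10.31 ± 0.30 and 9.18 ± 0.81 (SD, n = 4), a difference of 1.13 with SE 0.36, or 2.19-fold higher (limma adjusted p = 0.905). The 95% interval ran from 0.31 to 1.95. Without wild-type replicates 3 and 5 the difference was 0.47 (SE 0.24). The other F1 subunits did not share this size: Atp5a1, the alpha subunit that alternates with beta in the head, differed by -0.06, and Atp5c1, Atp5d and Atp5e by 0.21, 0.03 and -0.19.

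The c subunit of the proton-driven ring is made from 3 genes with the same mature protein. Atp5g3 read 12.74, 12.58, 12.68 and 12.56 against 12.46, 12.54, 12.46 and 12.36, with no overlap and a difference of 0.18 (SE 0.12). Its spread was small, with means of 12.64 ± 0.08 and 12.46 ± 0.07 (SD, n = 4). Atp5g1 and Atp5g2 spread far more. Atp5g1 read 8.90, 9.03, 8.26 and 8.53 against 8.06, 7.75, 9.01 and 9.50 (difference 0.10, SE 0.37). Atp5g2 read 9.29, 9.22, 8.85 and 8.24 against 7.77, 7.62, 9.01 and 9.25 (difference 0.49, SE 0.40). In both, wild-type replicates 3 and 5 were lowest, and without them the differences were -0.57 and -0.23.

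The 4 genes of the peripheral stalk, which holds the head still while the ring turns, all had slightly higher means on the arrays labelled knockout, from 0.05 to 0.19. Among them Atp5j (factor 6) read 10.52, 10.59, 10.44 and 10.40 against 10.24, 10.36, 10.40 and 10.29 (difference 0.16, SE 0.12). Of the 5 small subunits of the membrane part, 4 had lower means. Atp5j2, the f subunit, read 11.70, 11.92, 11.78 and 11.89 against 12.01, 12.13, 12.13 and 12.12, with no overlap. Its means were 11.82 ± 0.10 and 12.10 ± 0.06 (SD, n = 4), a difference of -0.27 with SE 0.12, or 1.21-fold lower. Atp5md, a subunit of the dimer interface, read 10.08, 10.19, 10.18 and 10.20 against 10.21, 10.35, 10.41 and 10.27, with no overlap and a difference of -0.15 (SE 0.12). Atp5l, the g subunit, differed by -0.29 (SE 0.26), and by -0.72 without wild-type replicates 3 and 5. The means of the remaining genes differed by less than their SE, Atp5mpl by -0.01 and Atp5k by 0.04.

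**Figure D2:**
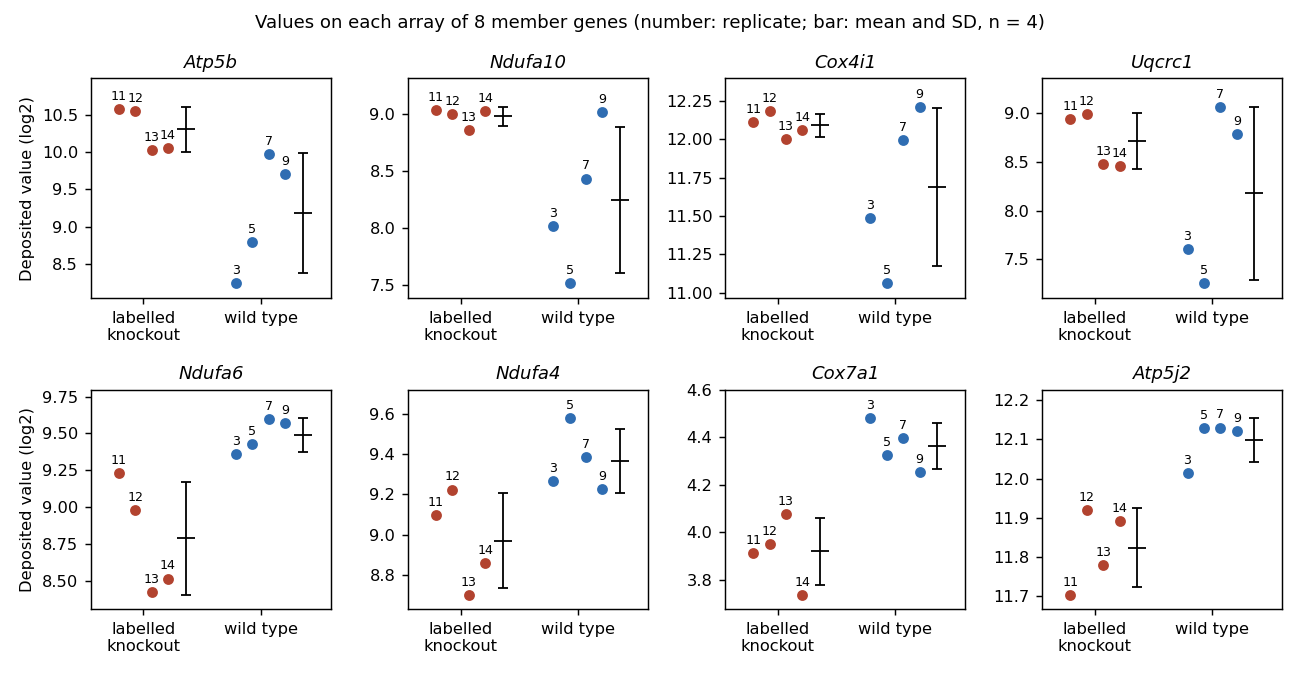
Deposited log2 value on each array of the 8 genes Atp5b, Ndufa10, Cox4i1, Uqcrc1, Ndufa6, Ndufa4, Cox7a1 and Atp5j2, with red points for the labelled knockout, blue points for the wild type, the replicate number above each point, and a bar for mean and SD (n = 4). Each panel has its own axis, which does not start at 0. In the upper 4 genes wild-type replicates 3 and 5 are the lowest arrays, and in the lower 4 genes the groups do not overlap, for Ndufa4 by only 0.001.

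In the mean over these genes, more of the variation lay within the wild type than between the groups. For single genes either group could be the wider. The SD was 0.78 in the labelled knockout and 0.19 in the wild type for Ndufaf1, and 0.30 and 0.81 for Atp5b. The mean deviation of the 84 genes from each gene's own mean over the 8 arrays was 0.03, 0.06, -0.10 and 0.07 on the arrays labelled knockout and -0.15, -0.15, 0.13 and 0.10 in the wild type. The same quantity over all 12393 genes stayed between -0.03 and 0.04. Wild-type replicates 3 and 5 were thus low for these genes and replicates 7 and 9 high, and all 4 arrays labelled knockout lay between them. ATP synthase had the same order within the wild type, with -0.28, -0.24, 0.15 and 0.16, but replicate 12 of the labelled knockout lay above these at 0.18. In complex I, replicate 13 of the labelled knockout at -0.17 lay below wild-type replicates 3 and 5, at -0.09 and -0.15. Other groups departed from the order within the wild type: complex IV had -0.07, -0.07, 0.12 and -0.04, complex II -0.40, -0.23, -0.02 and 0.27, and the assembly factors of complex I -0.115, -0.003, 0.077 and -0.046. Within ATP synthase the c-ring genes spread widest, from -0.64 in wild-type replicate 5 to 0.43 in wild-type replicate 9.

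Wild-type replicates 3 and 5 were the 2 lowest arrays for 14 of the 84 genes (16.7%), against 10.1% of all genes. The 14 were Ndufs7, Ndufab1, Ndufa3, Ndufa8, Ndufa10, Sdhb, Uqcrc1, Cox4i1, Cox6a1, Cox6b1, Atp5b, Atp5c1, Atp5g1 and Atp5g2. Without both arrays 26 genes were higher and 58 lower on the arrays labelled knockout, where it had been 43 and 41, and the median was -0.12. Over all genes the share that was higher stayed at 53.5%, against 53.4% with all arrays. These arrays were singled out after the values were seen. Among arrays labelled knockout, replicate 13 was the lowest of all 8 for 18 genes (21.4%, against 14.3% of all genes), and its complex I core genes deviated by -0.44.

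**Figure D3:**
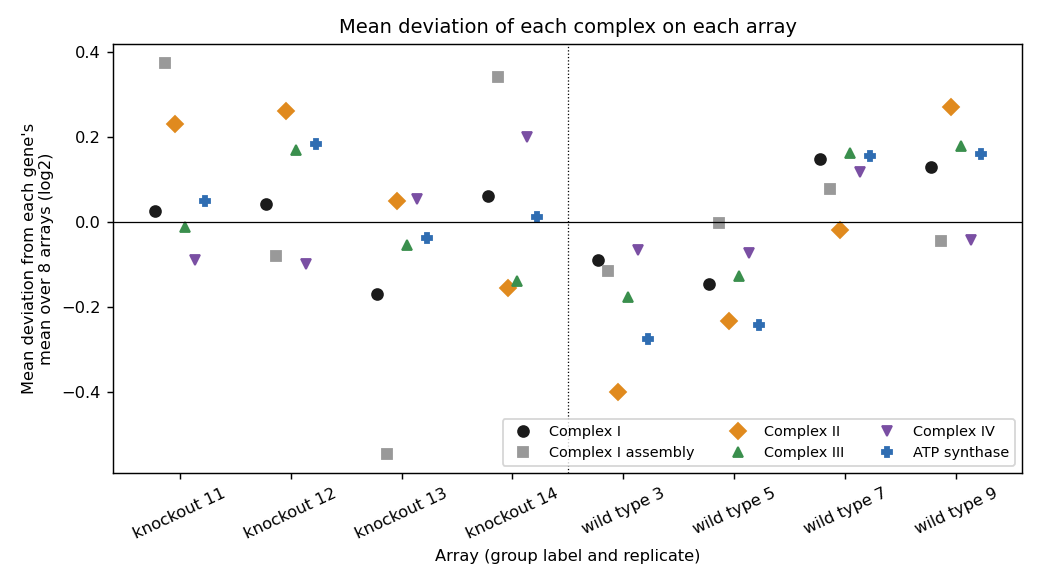
Mean deviation of the genes of each complex from each gene's own mean over the 8 arrays (log2), for each array, with a mark per complex. The marks of wild-type replicates 3 and 5 lie below 0, those of complexes I and III and of ATP synthase lie above 0 in wild-type replicates 7 and 9, and the assembly factors of complex I range from -0.55 in replicate 13 of the labelled knockout to 0.37 in replicate 11.

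Markers of the captured and neighbouring cells moved between the same arrays. Over 9 of 10 listed erythroid markers the mean deviation was 0.34, -0.07, -0.82 and 0.51 on the arrays labelled knockout and -0.49, -0.24, 0.34 and 0.43 in the wild type, with replicate 13 lowest. The other 8 markers, Alas2 left out, gave 0.27, -0.14, -0.74 and 0.44 against -0.32, -0.09, 0.23 and 0.35. The markers did not all follow 1 order. Alas2, the first enzyme of haem synthesis in red cells, read 10.21, 9.77, 7.85 and 10.39 against 7.54, 7.88, 10.58 and 10.33, low in replicate 13 and in wild-type replicates 3 and 5. Gata1, Klf1, Epor and the embryonic globin Hba-x were also lower in wild-type replicates 3 and 5 than in 7 and 9. For Klf1 the wild type read 9.15, 9.14, 10.29 and 10.73. Others went differently: Hbb-y, another embryonic globin, was highest in wild-type replicates 3 and 5, at 13.81 and 13.76. Tfrc, the transferrin receptor, read 10.68, 11.69, 11.52 and 11.29 in the wild type, with replicate 3 lowest of these. Its value in wild-type replicate 5 was the highest of all arrays. Slc4a1, the band 3 anion exchanger, read 11.44, 11.37, 11.40 and 11.23 in the wild type. The summed level of the erythroid list was nonetheless narrow, 15.23 to 15.54 and 15.31 to 15.49, as the globins fill most of it. Over 21 of 22 visceral endoderm markers the summed level was 14.74, 15.41, 15.57 and 12.78 against 14.72, 15.03, 15.01 and 15.20, so replicate 14 stood well below the others. Ttr, a defining visceral endoderm marker, read 12.86, 13.15, 13.37 and 10.60 against 12.87, 12.94, 12.996 and 13.13.

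The summed level of 20 endothelial markers was 11.06 to 12.31 against 10.97 to 11.62, of 14 mesenchyme and mesothelium markers 12.67 to 14.47 against 13.30 to 13.999, and of 12 macrophage markers 9.38 to 10.40 against 9.27 to 9.59. By gene, the 9 erythroid markers split 4 higher to 5 lower, the visceral endoderm markers 6 to 15, the endothelial 15 to 5, the mesenchyme 6 to 8 and the macrophage 10 to 2, and 0 of any list passed the adjusted test. No marker of any list is listed at 0, as array values of this kind do not reach it. The part of these cells in the values of the respiratory chain genes was not tested. In such samples fewer cells of a type and less RNA per cell cannot be told apart.

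Genes with several probe sets did not always give 1 answer. Of the 45 such genes, all probe sets had the same sign in 27 and at least 1 had the opposite sign in 18. Sdha was the clearest case. Its brightest probe set had a difference of 0.23, while the second read 9.14, 9.16, 8.84 and 8.52 against 9.44, 9.58, 9.65 and 9.31, with no overlap and a difference of -0.58 (limma adjusted p = 0.86 over all probe sets). The 2 probe sets had the same order among the arrays labelled knockout, replicates 11 and 12 above 13 and 14, and parted in the wild type. Ndufv1, the flavin subunit of complex I, had differences from 0.04 to 0.94. The probe set at the upper end read 9.10, 8.81, 8.12 and 8.71 against 7.20, 6.95, 8.26 and 8.55, with wild-type replicates 3 and 5 again far below the rest. The 6 probe sets of Ndufs8 ranged from -0.06 to 0.48 and the 3 of Atp5a1 from -0.06 to 0.41, and in both genes the brightest gave the lowest difference.

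Among the 72 probe sets of these genes that were not the brightest, the groups did not overlap for 1 that was higher on the arrays labelled knockout (a dim one of Cox7c) and 3 that were lower (of Sdha, Ndufa7 and Uqcr10). Over all 22626 probe sets the shares were 1.61% and 1.38%. By type, 38.1% of the 84 genes were represented by a probe set of the plain type, against 72.3% of all genes. The rest were of types whose probes are shared by transcripts of several genes (s_at, 15.5%), match several transcripts of 1 gene (a_at, 35.7%) or may cross-hybridise (x_at, 10.7%). Whether the type of a probe set bears on its difference was not tested, and which sequences the probes match was not examined here, so values of the shared types are uncertain.

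**Figure D4:**
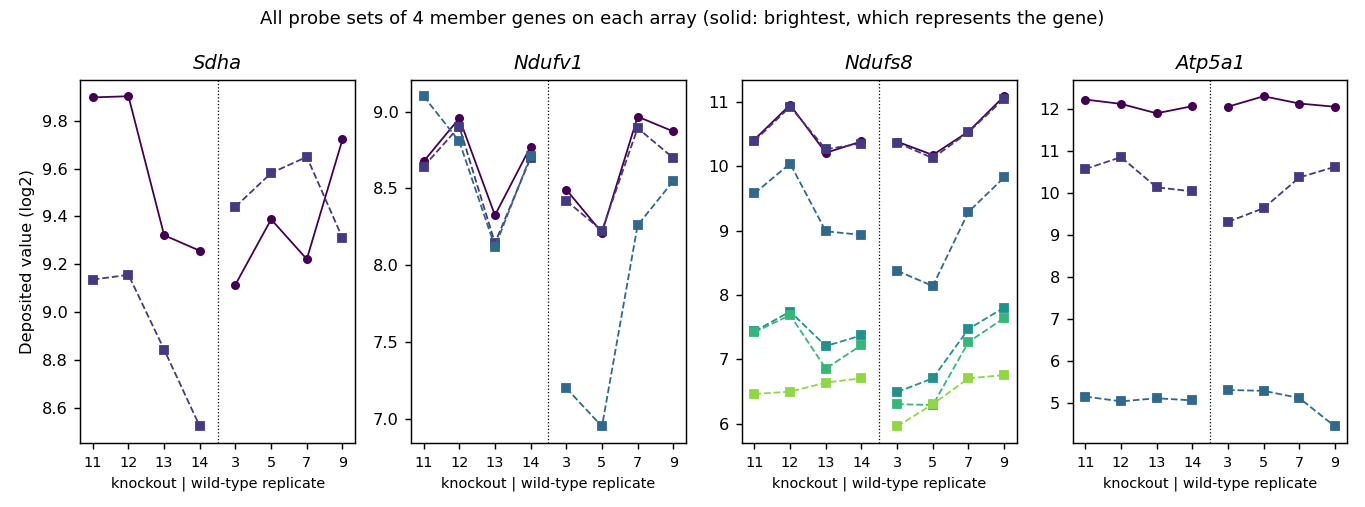
Deposited log2 values of every single-symbol probe set of Sdha, Ndufv1, Ndufs8 and Atp5a1 on each array, the brightest with solid lines and the others with dashed lines. Lines join the points of 1 probe set within a group and show no order among replicates. The 2 probe sets of Sdha cross between the groups, and the dashed Ndufv1 probe set that is lowest in the wild type drops to 7.20 and 6.95 in replicates 3 and 5.

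The authors' deposited table gives each probe set an S-score, a probe-level statistic of the difference between the groups, with a q-value. Its direction is not stated in the sources used here. Over all probe sets the scores in the authors' deposited table correlated with the log2 differences at 0.796, and positive scores are taken here to mean higher values on the arrays labelled knockout. Of the 84 genes, the authors' deposited table gave 35 a positive and 49 a negative score, and for 68 the sign was that of the log2 difference. With q under 0.05 in the authors' deposited table there were 2 genes, both positive, against 0.516% of all genes positive and 0.436% negative: Atp5b at 3.99 (q = 0.013) and Ndufa10 at 3.75 (q = 0.025). Wild-type replicates 3 and 5 were the lowest arrays for both genes, and the S-score without them was not computed here.

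Other genes of the pathway were read from lists drawn up beside the rule, and 0 of their members passed the adjusted test. Cytochrome c and further complex III genes (5 of 5 measured) split 3 to 2, median 0.16. Cycs, the somatic cytochrome c that carries electrons between complexes III and IV, read 12.78, 12.51, 12.71 and 12.88 against 12.79, 12.93, 12.92 and 12.71 (difference -0.12). Bcs1l, the chaperone that inserts the Rieske protein, differed by 0.36 and Ttc19 by 0.16. Of 19 measured assembly factors outside the symbol rule, of 26 listed, 15 were higher and 4 lower, with a median of 0.14. Of these, Atpaf2, a chaperone of the F1 alpha subunit, differed by 0.59 (SE 0.27), Timmdc1, a complex I factor, by 0.42 (SE 0.17) and Cox16 by -0.29. Without wild-type replicates 3 and 5 the median of this list was -0.08.

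Of 16 measured citric acid cycle genes 12 were higher and 4 lower (median 0.21). Suclg2, the GTP-forming beta subunit of succinyl-CoA ligase, differed by 0.93 (SE 0.29), Dld by 0.52 and Idh3g by 0.31. The 8 measured carriers and porins, which pass nucleotides, phosphate and other metabolites across the membranes, split 5 to 3 (median 0.25) and held 3 genes with unadjusted p under 0.05, all higher, where the share over all genes was 3.33%. Slc25a3, the phosphate carrier that feeds ATP synthase, read 11.86, 11.99, 11.73 and 11.70 against 10.82, 10.61, 11.52 and 11.54, with no overlap and a difference of 0.69 (SE 0.23). It shared with Atp5b the low wild-type replicates 3 and 5. Slc25a11, the oxoglutarate carrier, differed by 0.72 (SE 0.26) and the porin Vdac2 by 0.51 (SE 0.20). The 18 measured factors of mitochondrial biogenesis and mitochondrial DNA split 9 to 9 (median 0.04), with Tfam at 0.36, Esrra at 0.31 and Polrmt at 0.27. The 7 measured genes of coenzyme Q synthesis split 3 to 4 (median -0.01), with Coq4 at -0.44, Coq8a at -0.43 and Coq5 at 0.25.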

How the data were processed

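RNA of laser-captured cells was measured on 8 arrays, 4 per group. The deposited array values are log2 expression, for which GCOS, RMA and affy are listed as tools per the submitters' processing notes; array medians were 5.08 to 5.20. The score values, with p-values and q-values, were computed by the authors and deposited in their table as S-scores, per the file headers. Probe sets were named from the platform annotation: 20380 had 1 gene symbol, 691 several and 1555 none, and 8 with a matching symbol among several were left out. All 84 members were found in the RefSeq gene table. limma 3.58.1 in R 4.3.3 (lmFit and eBayes, two-sided, Benjamini-Hochberg over 12393 genes) gave every fitted difference, SE and p. The fit was tested on simulated data. The number of arrays limits the precision, and p-values measure the spread between these pooled samples, which the labels do not say come from separate litters.

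The members and lists were chosen with earlier results of these data known. Genes were named by rule: in each complex the up to 4 of smallest p and 2 of largest SD within groups, isoform pairs, all of complex II, the up to 3 of smallest p in each list, and Klf2. Alternatives were quantile normalization, median centring, leaving out dim probe sets, a trended robust fit, array weights, the mean over probe sets and leaving out each array. The brightest plain probe set and leaving out wild-type replicates 3 and 5 were added after seeing the data.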

Additional observations from a re-analysis of the deposited data

Results flagged for a closer look

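In 8 of 182 sets of 4 arrays examined, a single array stood apart from the other 3 of its group by Dixon's test at the 95% level, and chance gives about 1 in 20. Replicate 12 of the labelled knockout was high for 3 complex III genes: Uqcrfs1 at 9.89 (others 9.60 to 9.65), Uqcrh at 7.92 (others 7.73 to 7.75) and Uqcrq at 10.21 (others 9.79 to 9.80). In complex IV, Cox6b1 was low in replicate 11 of the labelled knockout at 12.17 (others 12.54 to 12.59), and Cox5a was low in wild-type replicate 9 at 11.79 (others 11.96 to 11.99). In ATP synthase, Atp5j2 was low in wild-type replicate 3 at 12.01 (others 12.12 to 12.13), which is the wild-type array nearest the labelled knockout. The mean deviation of complex I was -0.17 in replicate 13 of the labelled knockout (others 0.03 to 0.06). The mean deviation of complex IV was 0.12 in wild-type replicate 7 (others -0.07 to -0.04).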

How the results depend on the processing

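No gene of the 12393, and so no member, passed an adjusted p of 0.05 in limma under any of the 16 other settings tried; the members' lowest adjusted p ranged from 0.388 with array weights to 1.0 without wild-type replicate 5. The number of all genes at an unadjusted p under 0.05 was 413 higher and 182 lower with all arrays and in either direction ranged from 180 without wild-type replicates 3 and 5 to 1474 with array weights. The share of all genes that were higher on the arrays labelled knockout was 53.4% and ranged from 47.1% after median centring to 57.3% without dim probe sets. No paired analysis was possible because the groups share no replicate number. With 4 arrays a group, the 95% intervals were 0.27 to 0.91 wide on each side of a difference, and differences within them could not be told from 0. For the changes below the cause was not tested.

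Quantile normalization turned Cox8b to 0.0062. Median centring left 0 members higher without overlap, and the share over all genes was not counted there. The members lower at an unadjusted p under 0.05 were 1 without dim probe sets and 2 in the trended robust fit. In either direction, 4.76% and 4.71% of all genes tested were under it there. The mean over probe sets turned Sdha to -0.17 and Sdhc to 0.17. With the brightest plain probe set, 4 members were higher at an unadjusted p under 0.05. In either direction, 5.0% of all genes with such a probe set were under it.

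Leaving out each array in turn, the members at an unadjusted p under 0.05 ranged from 1 to 6 higher and from 2 to 5 lower. The 6 came without wild-type replicate 9, where all genes gave 5.91%. The 5 came without replicate 11 or 14 of the labelled knockout, where all genes gave 1.7% and 2.4%. Members without overlap ranged from 2 to 6 higher (6 without wild-type replicate 9, where all genes gave 4.53%). They ranged from 5 to 10 lower (10 without replicate 14 of the labelled knockout, where all genes gave 3.56%). The median of the cytochrome c list ranged from 0.0521 to 0.19. The differences ranged from -0.14 to 0.32 for Ndufaf7, -0.19 to 0.0319 for Sdhc, -0.25 to 0.15 for Cox6a2, -0.22 to 0.19 for Cox8b, -0.18 to 0.41 for Atp5g1, -0.11 to 0.0395 for Cox4i2 and -0.37 to 0.11 for Cox6b2.

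Without wild-type replicates 3 and 5 together, 1 member was higher and 2 lower at an unadjusted p under 0.05 (1.02% and 0.44% of all genes), and 5 higher and 14 lower without overlap (5.08% and 3.27% of all genes). The median difference was -0.12 over the members, -0.0651 in complex II and -0.0759 in the assembly factors outside the symbol rule. The differences turned to -0.0430 for Ndufa8, -0.14 for Ndufaf3, -0.0570 for Sdhb, -0.0733 for Sdhd, -0.21 for Uqcrc1, -0.0143 for Cox4i1, -0.23 for Atp5g2, -0.57 for Atp5g1 and -0.0229 for Cox6b1. Across these settings the difference of no other gene chosen by the rule for named genes changed sign (the genes added to complete a group were not followed, and several of them turned without wild-type replicates 3 and 5), no other median moved by more than the spread between arrays, and no other count by over 1.5 times.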
